A study of Mus musculus with 4 samples.

Results

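The forkhead box (Fox) transcription factor genes were examined in nascent-transcription peak lists of mouse embryonic liver and yolk sac. They were taken as the protein-coding genes of GENCODE vM21 whose symbol is Fox followed by a letter from a to s, a number and at most 1 further letter, without Foxa1, Foxa2, Foxa3 and Foxf1. This gave 40 Fox genes of 21951 protein-coding genes, in 18 lettered subfamilies from FoxB to FoxS. The study made PRO-seq libraries, in which RNA polymerases caught on chromatin extend their nascent RNA, and each library is represented by a list of peaks from dREG, a classifier that marks where transcription initiates, whether at a promoter or at an enhancer. Liver and yolk sac were each measured in 2 libraries, and each library pooled tissue of 6 embryos at embryonic day E14.5. All embryos came from C57BL/6J mothers and from fathers of a mixed C57BL/6J and CAST/EiJ background chosen to carry CAST/EiJ alleles at the Dlk1/Gtl2 locus, so both tissues share this cross and there is no other genotype. The labels do not say whether the 2 libraries of a tissue came from separate pools, and a p-value then measures only the spread between these libraries.

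Fox proteins bind DNA through a conserved winged-helix domain, and the lettered subfamilies differ outside it. FoxO factors are held in the cytoplasm when insulin and PI3K signalling phosphorylates them. FoxM1 drives genes of the late cell cycle, FoxK factors repress with Sin3, FoxP factors are transcriptional repressors that act as dimers, and FoxC, FoxD, FoxF, FoxL and FoxS genes are best known from mesenchyme, vessels and organ development. At this stage the liver is the main site of blood formation, while the yolk sac is a layer of visceral endoderm over mesoderm that holds vessels and blood cells.

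The liver lists held 24863 and 24333 peaks and the yolk sac lists 50525 and 43055 peaks (replicates 1 and 2). The peaks carry a deposited score and no read count, so the depth of the libraries is unknown and a gene missing from a list was not called there, which does not show that it was silent. Markers followed the tissue labels in part. All 9 erythroid markers had a promoter peak in both liver lists and 3 of 9 in both yolk sac lists. Hepatocyte markers were called for 7 and 6 of 10 genes in liver and 6 and 6 in yolk sac. Yolk sac endoderm markers were called for 8 and 6 of 10 genes in liver and 10 and 10 in yolk sac. Mesenchyme markers were called for 8 and 9 of 10 genes in liver and 10 and 10 in yolk sac, at median score percentiles of 36.3% and 40.2% in liver and 76.7% and 73.9% in yolk sac. Endothelial markers were called for 5 and 6 of 8 genes in liver and 8 and 8 in yolk sac. In such bulk samples, fewer cells of a type and less RNA per cell cannot be told apart.

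A RefSeq promoter window (250 bases before to 50 bases after a start, 300 bases in all, GRCm38.p6) matched 25 of the 40 Fox genes and gave 28 windows. The windows printed here are those under promoter peaks called in 1 to 3 libraries (Foxd1, Foxl2, Foxc1, Foxf2), that of Foxo3, and the 3 windows matched to Foxp1, because these genes carry the tissue patterns described next. No window was matched to the Foxp1 start 426516 bp downstream or to its 5′-most starts. The window printed as Foxp1 5′ promoter belongs to starts 1559 bp downstream of the 5′ end, which share the peak of the 5′ end. All windows run 5′ to 3′ on the gene's strand. Capitals mark every match to the GC box letters GGGCGG or, on the other strand, CCGCCC, the core of the sites of Sp1-family factors. The windows lie at chr13:98353995-98354294 (Foxd1, plus strand), chr9:98955357-98955656 (Foxl2, plus), chr13:31806396-31806695 (Foxc1, plus), chr13:31625566-31625865 (Foxf2, plus), chr10:42276646-42276945 (Foxo3, minus), and, on the minus strand in Foxp1, chr6:99520944-99521243 near the 5′ end, chr6:99266466-99266765 at an internal start, under no peak in any library, and chr6:99028249-99028548 at an internal start farther downstream.
Foxd1: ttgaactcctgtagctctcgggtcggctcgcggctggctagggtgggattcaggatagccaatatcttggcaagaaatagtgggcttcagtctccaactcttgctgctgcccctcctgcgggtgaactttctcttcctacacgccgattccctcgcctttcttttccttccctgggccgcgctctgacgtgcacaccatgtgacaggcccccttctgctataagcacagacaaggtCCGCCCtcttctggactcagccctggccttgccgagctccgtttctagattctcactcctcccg
Foxl2: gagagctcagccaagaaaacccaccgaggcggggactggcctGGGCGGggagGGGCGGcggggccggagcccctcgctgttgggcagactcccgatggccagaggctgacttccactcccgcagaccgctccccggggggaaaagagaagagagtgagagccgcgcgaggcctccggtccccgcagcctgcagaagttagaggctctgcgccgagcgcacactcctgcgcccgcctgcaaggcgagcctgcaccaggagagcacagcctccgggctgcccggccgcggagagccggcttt
Foxc1: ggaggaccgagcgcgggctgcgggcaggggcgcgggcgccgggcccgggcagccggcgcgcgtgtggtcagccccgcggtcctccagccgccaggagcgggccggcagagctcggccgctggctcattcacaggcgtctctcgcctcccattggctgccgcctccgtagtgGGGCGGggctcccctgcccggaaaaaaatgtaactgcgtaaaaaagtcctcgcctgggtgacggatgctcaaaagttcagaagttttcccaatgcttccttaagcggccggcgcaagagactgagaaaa
Foxf2: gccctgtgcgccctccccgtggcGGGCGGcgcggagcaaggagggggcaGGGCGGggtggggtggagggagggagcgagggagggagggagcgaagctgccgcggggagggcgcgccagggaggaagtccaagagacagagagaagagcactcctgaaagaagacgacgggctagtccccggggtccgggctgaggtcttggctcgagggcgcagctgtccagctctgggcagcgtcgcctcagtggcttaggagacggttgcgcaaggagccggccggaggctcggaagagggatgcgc
Foxo3: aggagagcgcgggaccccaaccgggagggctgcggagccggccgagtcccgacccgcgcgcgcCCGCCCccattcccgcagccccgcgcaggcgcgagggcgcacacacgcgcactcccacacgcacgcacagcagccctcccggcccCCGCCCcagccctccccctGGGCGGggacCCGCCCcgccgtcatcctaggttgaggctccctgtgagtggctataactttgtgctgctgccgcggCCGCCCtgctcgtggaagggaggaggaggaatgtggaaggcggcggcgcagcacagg
Foxp1 5′ promoter: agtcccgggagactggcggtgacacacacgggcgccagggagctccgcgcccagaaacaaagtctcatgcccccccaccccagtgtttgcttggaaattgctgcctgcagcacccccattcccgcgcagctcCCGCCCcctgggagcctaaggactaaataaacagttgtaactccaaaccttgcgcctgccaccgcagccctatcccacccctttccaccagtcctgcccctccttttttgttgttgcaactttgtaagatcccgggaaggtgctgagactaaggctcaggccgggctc
Foxp1 internal promoter: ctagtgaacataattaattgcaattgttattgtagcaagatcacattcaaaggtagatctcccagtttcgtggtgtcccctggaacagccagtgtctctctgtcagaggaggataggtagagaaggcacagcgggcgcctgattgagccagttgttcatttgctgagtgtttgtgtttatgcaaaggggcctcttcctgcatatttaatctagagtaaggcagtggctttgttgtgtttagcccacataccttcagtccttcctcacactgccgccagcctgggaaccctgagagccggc
Foxp1 downstream internal promoter: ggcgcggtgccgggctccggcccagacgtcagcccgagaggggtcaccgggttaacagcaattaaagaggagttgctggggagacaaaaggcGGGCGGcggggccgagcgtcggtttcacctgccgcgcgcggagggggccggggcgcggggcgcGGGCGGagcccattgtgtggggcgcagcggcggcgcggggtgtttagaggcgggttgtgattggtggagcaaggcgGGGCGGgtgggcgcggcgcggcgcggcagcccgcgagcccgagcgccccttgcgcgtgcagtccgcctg

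The windows under peaks were rich in CpG. The 9 windows under a peak in all 4 libraries had a median GC content of 75.0% (60.3% to 79.3%) and a median of 35 CpG. The 4 windows under a peak in 1 to 3 libraries had medians of 69.3% and 27 CpG, and the 15 Fox windows under no peak had medians of 58.7% and 8 CpG. Over 32851 RefSeq windows of the same length the medians were 52.7% and 7 CpG. A GC box stood in 9 of 9, 4 of 4 and 6 of 15 windows of these Fox classes, against 35.7% of all windows. Foxo3 had 5 matches, the Foxp1 window near the 5′ end 1, the downstream internal window 3, and the Foxp1 window at chr6:99266466-99266765 none. The letters CCAAT, read as ATTGG on the other strand, were found in 12 of 28 Fox windows and in 37.4% of all windows, and TATAAA, read as TTTATA on the other strand, in 1 of 28 and in 13.6%. The forkhead letters TGTTTAC, read as GTAAACA on the other strand, were found in none of the 28 Fox windows and in 3.65% of all windows. Overlapping matches were counted. These are matches of letters in the windows and were not tested.

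Most Fox promoters were called either in all 4 libraries, the broadly called group, or in none. A smaller yolk sac group was called in both yolk sac libraries only. A gene had a promoter peak where a peak overlapped the 500 bp either side of any annotated start, and 15, 18, 23 and 23 of the 40 Fox genes had one in liver 1, liver 2, yolk sac 1 and yolk sac 2. Liver averaged 16.5 ± 2.12 such Fox genes, yolk sac 23 ± 0 (SD, n = 2 each). The difference of 6.5 genes exceeded the spread between replicates (exact two-sided permutation test, p = 0.333, the smallest that 2 against 2 libraries can give). Over all protein-coding genes the share with a promoter peak was 56.1% and 57.9% in liver and 63.8% and 62.4% in yolk sac. Fox shares were 37.5% and 45.0% in liver and 57.5% in each yolk sac library, below those of all genes in every library. With each list reduced to its 24333 highest-scoring peaks, the Fox difference shrank to 1 gene (exact p = 0.667).

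Of the 40 Fox genes, 15 carried promoter peaks in every library, where 53.8% of coding genes did. These were Foxd2, Foxj1, Foxj2, Foxj3, Foxk1, Foxk2, Foxm1, Foxn2, Foxn3, Foxo1, Foxo3, Foxo4, Foxp1, Foxp3 and Foxp4. Both FoxK genes, all 3 FoxJ genes, 3 of 4 FoxO genes, 3 of 4 FoxP genes and the only FoxM gene were in this group. Another 6 Fox genes (Foxc2, Foxd1, Foxl1, Foxl2, Foxo6 and Foxs1) had a promoter peak in both yolk sac lists but no liver list, where 5.25% of coding genes did. No Fox gene had one in both liver libraries alone, where 1.01% of coding genes did. Foxc1 and Foxf2 were called in liver 2 and both yolk sac libraries, and Foxp2 in liver 2 only. The other 16, among them Foxb1, Foxb2, Foxd3, Foxd4, Foxe1, Foxe3, Foxh1, Foxi1, Foxi2, Foxi3, Foxn1, Foxn4, Foxq1, Foxr1 and Foxr2, were called in no library, where 34.2% of coding genes were.

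**Figure D1:**
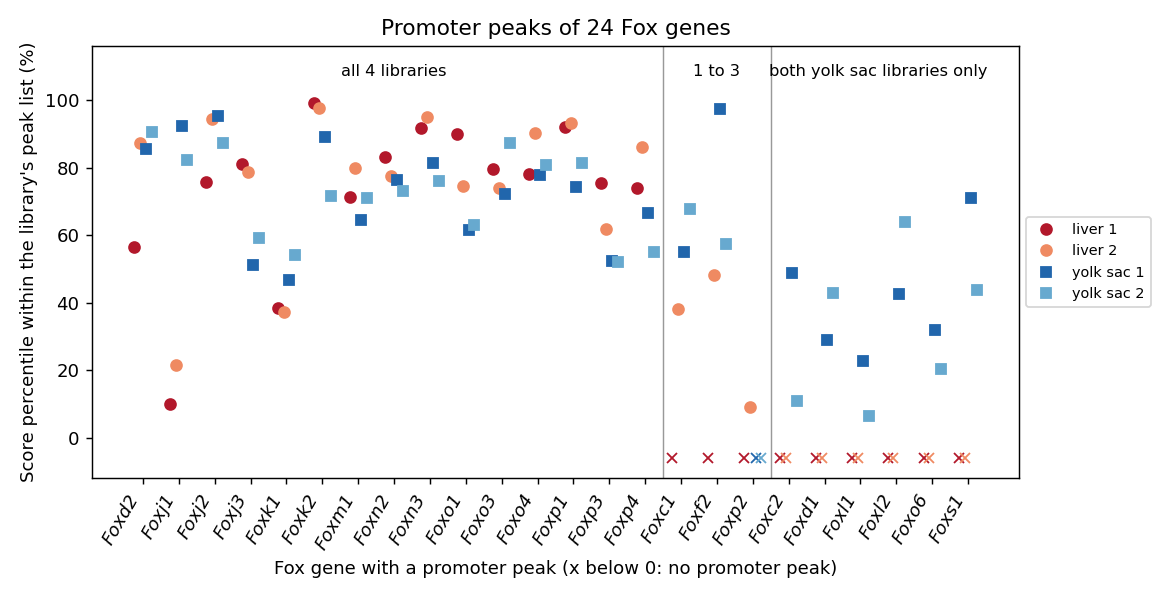
Score percentile of the highest-scoring promoter peak within each library's own peak list (vertical axis, %), for the 24 Fox genes with such a peak (horizontal axis). Circles are liver and squares yolk sac libraries, and a cross below 0 marks a library without a promoter peak. The peaks of the 6 genes called in yolk sac only lie between 6.42% and 71.0%.

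The place of a peak in its list is given as its score percentile, the share of the peaks of the same list that scored lower, with ties counted by their middle rank. The score is that of the dREG classifier and does not measure an amount of transcription. The lists differ in length, so percentiles place a gene within a list and show no change between tissues. Foxs1, a mesenchymal and pericyte-associated gene at chr2:152931898-152933208 on the minus strand, had percentiles of 71.0% and 43.6% in the yolk sac lists, with peaks of 2152 and 602 bp over its start. Foxl2, known for ovary and eyelid development, had percentiles of 42.6% and 63.9% and widths of 1152 and 1252 bp. Both peaks of Foxl2 also covered the start of the opposite-strand transcript Foxl2os, and the peaks carry no strand.

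Foxd1, a marker of stromal precursors in the kidney, had percentiles of 28.8% and 42.8% and a width of 352 bp in each yolk sac list. Foxc2, a regulator of lymphatic vessels, had 48.6% and 10.7%. Foxo6, the FoxO gene best known from brain, had 31.9% and 20.4%. Foxl1, a gene of the gut mesenchyme, had 22.7% and 6.42%, and its peak ended 338 bp upstream of the start without covering it. These 4 genes thus ranked below the middle of both yolk sac lists. Over the 6 yolk-sac-only Fox genes the median percentile was 37.2% and 31.6%, against 74.3% and 73.0% in the same libraries for the 15 genes called in all 4. The broadly called genes ran from 46.6% to 95.3% in yolk sac 1 and from 51.9% to 90.5% in yolk sac 2. Of the yolk sac group, Foxs1 and Foxc2 reached this range in yolk sac 1 and Foxl2 in yolk sac 2, and the others lay below it in both.

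The length of the lists bears on this group directly. With 24333 peaks in every list, Foxs1 was still called in yolk sac 1 and 2 but not in liver, Foxl2 was called in yolk sac 2 only, and Foxc2, Foxd1, Foxl1 and Foxo6 were called nowhere. Of the yolk sac group, then, 1 of 6 genes kept its pattern at equal list length. None of the 6 kept it among the 50% of peaks with the higher scores, where Foxs1 was called in yolk sac 1 only and Foxl2 in yolk sac 2 only. Mesenchyme, endothelial and yolk sac endoderm markers were also each called more often in the yolk sac lists. Among the markers called, the median percentile of each of these sets was higher there too. For the yolk sac endoderm set it was 74.9% and 68.6%, against 33.7% and 51.0% for the liver lists. Single markers did not all follow, such as endothelial Tie1. These are places within lists of different length, and the part of any of these cell types in the Fox pattern was not tested.

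Foxc1 and Foxf2 stood between the broadly called group and the yolk sac group. Foxc1, which acts in vessels, eye and skull, was called in liver 2 at a percentile of 38.0% and in yolk sac at 55.1% and 67.7%, with widths of 602 bp in liver 2 and 1152 and 1202 bp in yolk sac. Foxf2, a gene of gut and vascular mesenchyme, was called in liver 2 at 48.3% and in yolk sac at 97.4% and 57.4%, with widths of 552 bp and of 1602 and 1252 bp. For both genes the single liver peak ranked lower and was narrower than either yolk sac peak. Among the 50% of peaks with the higher scores, both were called in yolk sac 1 and 2 but not in liver, and with equal list lengths their pattern was as in the full lists. The Foxf2 peaks also overlapped the 500 bp around the start of the opposite-strand lincRNA gene 1700018A04Rik. The smallest distance from a peak middle over the libraries was 84 bp, against 60 bp for Foxf2. Foxp2, known from brain and lung, had only a peak of 402 bp in liver 2 at a percentile of 9.04%. These 3 genes were called in liver 2 and not in liver 1.

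Among the 15 Fox genes called in all 4 libraries, Foxj1 differed most between tissues in where its peaks stood within the lists. Foxj1, the master regulator of motile cilia, lies at chr11:116330704-116335399 on the minus strand. Its percentiles were 9.86% and 21.4% in liver and 92.4% and 82.1% in yolk sac, and its peak widths 102 and 652 bp in liver and 3202 and 2702 bp in yolk sac. Both measures were separate between the tissues. The liver 1 peak lay 52 bp upstream of the start without covering it, and the yolk sac peaks covered the start and ran to 2648 and 2348 bp downstream of it. Each liver library had a further peak in the body of Foxj1, of 902 and 252 bp at 28.1% and 14.2%, which overlapped the yolk sac peak, so the yolk sac lists joined what the liver lists split. Among the 50% of peaks with the higher scores, Foxj1 was called in yolk sac 1 and 2 but not in liver, and with 24333 peaks per list it was called in all 4. When the middle of the peak had to lie within 500 bp of the start, Foxj1 was instead called in both liver libraries only, since the middles of the wide yolk sac peaks lay 1048 and 998 bp downstream.

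Of the other 14, Foxk2, Foxj2 and Foxn3 had the highest mean percentiles over the 4 libraries. Foxk2, a repressor that binds Sin3 and BAP1, had percentiles of 99.2% and 97.6% in liver and 89.1% and 71.4% in yolk sac. Foxj2, a broadly expressed activator, had 75.7% and 94.4% in liver and 95.3% and 87.2% in yolk sac. Foxn3, a repressor linked to cell cycle checkpoints, had 91.8% and 95.1% in liver and 81.4% and 75.9% in yolk sac. Lowest were the means of Foxk1, with 38.6% and 37.3% in liver and 46.6% and 54.1% in yolk sac, Foxp3, and Foxj3. Foxj3, which acts in muscle and spermatocytes, had 81.1% and 78.8% in liver and 51.3% and 59.3% in yolk sac. Its tissue means differed by -24.7 percentage points (yolk sac minus liver), just short of the 25 points used to single out a gene such as Foxj1.

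Foxp3 is the factor that defines regulatory T cells, and its call needs care. Its peaks had percentiles of 75.4% and 61.7% in liver and 52.3% and 51.9% in yolk sac, at the 5′-most annotated start at chrX:7573644. In all 4 libraries these peaks also covered the start of Ppp1r3f on the opposite strand and of the noncoding RNA gene Flicr. The starts 5923 and 12629 bp downstream in Foxp3 had no peak in any library. Similar sharing touched other members. The Foxm1 peak covered the start of Rhno1, 11 bp from the peak middle against 141 bp for Foxm1. The Foxd2 peak covered Foxd2os, at 6 bp against 253 bp. The Foxj3 peak covered the start of the protein-coding gene Frg2f1, at 172 bp against 3 bp for Foxj3. Each of these distances is the smallest over the libraries and over the starts of the gene, so a pair can come from different libraries. As the peaks have no strand, they do not say which of the genes at such a start was transcribed.

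The FoxO and FoxM members completed the broadly called group. Foxo1 had percentiles of 89.9% and 74.7% in liver and 61.4% and 63.0% in yolk sac. Foxo3 had 79.4% and 73.8% in liver and 72.2% and 87.2% in yolk sac, and Foxo4 had 78.2% and 90.2% in liver and 77.8% and 80.6% in yolk sac. For Foxo3 the tissues overlapped, while both liver values of Foxo1 lay above both yolk sac values. Foxm1 had percentiles of 71.2% and 79.8% in liver and 64.5% and 70.8% in yolk sac. Foxn2 had 83.0% and 77.5% in liver and 76.4% and 73.0% in yolk sac. Foxd2 had 56.3% and 87.3% in liver and 85.4% and 90.5% in yolk sac, and was alone among FoxD genes in being called in liver. Over the 15 genes the median percentile was 78.2% and 79.8% in liver and 74.3% and 73.0% in yolk sac. Yolk sac minus liver, the mean difference of -5.35 points became -18.2 points among the 50% of peaks with the higher scores and -27.7 points with equal list lengths, and no tissue order is read from it. As a description of places within lists, percentiles were higher in both liver libraries for 9 of the 15, where 22.1% of coding genes were, and higher in both yolk sac libraries for Foxj1 and Foxk1, where 34.4% were.

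**Figure D2:**
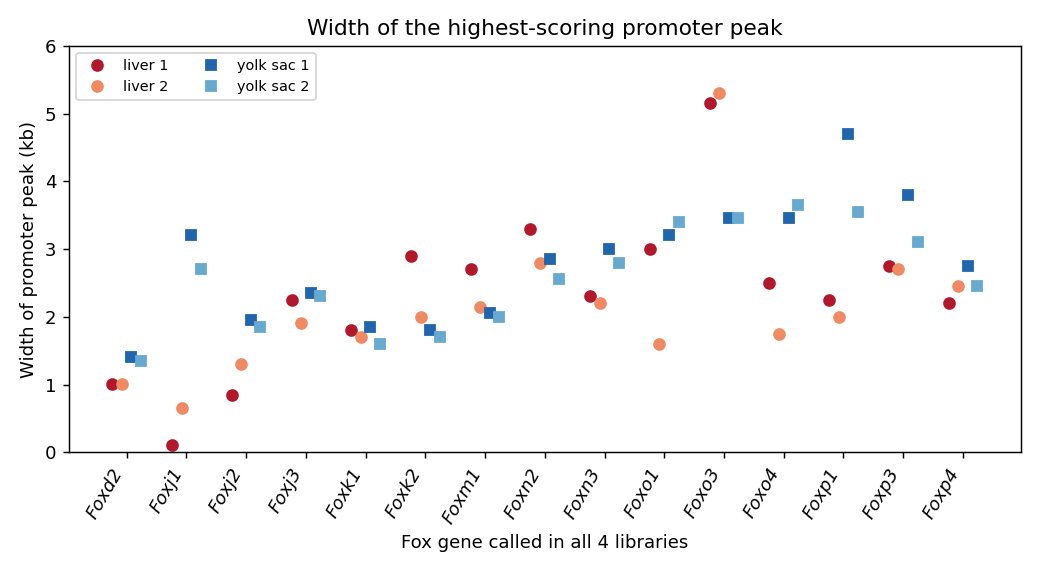
Width of the highest-scoring promoter peak (vertical axis, kb) for the 15 Fox genes called in all 4 libraries (horizontal axis). Circles are liver and squares yolk sac libraries. Foxj1 reached 3202 bp in yolk sac against at most 652 bp in liver, and Foxo3 reached 5302 bp in liver against 3452 bp in yolk sac.

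Fox promoter peaks were wide. The median width over the 15 genes was 2302 and 2002 bp in liver and 2852 and 2552 bp in yolk sac, against 1702, 1552, 1752 and 1602 bp for the 11805 coding genes. Liver averaged 2152 ± 212 bp and yolk sac 2702 ± 212 bp (SD, n = 2 each), a difference of 550 bp (exact permutation p = 0.333, the smallest possible). The difference over coding genes was 50 bp (exact permutation p = 0.667). The peak was wider in both yolk sac libraries for 9 of the 15 Fox genes (34.5% of coding genes) and wider in both liver libraries for 3 (20.9%). The 9 were Foxd2, Foxj1, Foxj2, Foxj3, Foxn3, Foxo1, Foxo4, Foxp1 and Foxp3. The 3 were Foxk2, Foxm1 and Foxo3. Foxo3 had the widest liver peaks, 5152 and 5302 bp, against 3452 bp in each yolk sac library. Each yolk sac list instead had a separate peak of 702 bp (percentiles 34.8% and 42.3%) inside the span of the Foxo3 liver peak, so that part of the width difference is a call joined in liver and split in yolk sac. The Foxo4 peak measured 2502 and 1752 bp in liver and 3452 and 3652 bp in yolk sac. The plot of widths shows these opposite orders within the FoxO subfamily.

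Several Fox genes had more than 1 called start. Foxp1, at chr6:98925338-99522721 on the minus strand, spans 597384 bp with 22 annotated starts. Peaks at its 5′ end had percentiles of 61.1% and 68.0% in liver and 74.3% and 81.5% in yolk sac. At the start 426516 bp downstream they were 92.1% and 93.2% in liver and 61.2% and 68.8% in yolk sac. At the start 493779 bp downstream they were 26.6% and 42.5% in liver and 64.7% and 68.8% in yolk sac. Within each liver list the start at 426516 bp thus ranked above the 5′ end, and within each yolk sac list below it. The start 256189 bp downstream was called at 32.5% and 12.0% in yolk sac and at 0.316% in liver 1. Because the top-ranked start of Foxp1 was not the same in the 2 tissues, its widths and percentiles above compare different promoters. At the 5′ end itself the widths were 3702 and 3452 bp in liver and 4702 and 3552 bp in yolk sac, which overlap.

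Foxn3 showed a like order. Its 5′ end had percentiles of 91.8% and 95.1% in liver and 68.1% and 64.9% in yolk sac, and its start 169785 bp downstream had 81.6% and 89.7% in liver and 81.4% and 75.9% in yolk sac. Thus the 5′ end ranked first within both liver lists and the internal start within both yolk sac lists, so the Foxn3 values above also mix promoters. In Foxj2 the internal start 6761 bp downstream outranked the 5′ end in both yolk sac lists and in liver 1, and the 5′ end outranked it in liver 2. Foxp4, a lung and gut FoxP gene, had a peak at its start 36212 bp downstream in yolk sac only, at 32.1% and 43.2%.

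Peaks inside Fox genes, away from their starts, were concentrated in few loci. By library they numbered 22, 23, 61 and 41, on average 22.5 ± 0.707 for liver and 51 ± 14.1 for yolk sac (SD, n = 2 each). The difference was 28.5 peaks (exact permutation p = 0.333). The yolk sac to liver ratio was 2.27 for Fox genes and 2.53 for peaks in the bodies of all coding genes. With equal list lengths the Fox difference reversed, to -6.5 peaks. Of the 15 Fox genes with any body peak, 5 had more in both yolk sac libraries (Foxf2, Foxk2, Foxn1, Foxo6 and Foxp1), where 44.7% of coding genes with any did. Foxj1 and Foxn2 had more in both liver libraries, where 8.93% did. For Foxj1 these were the split liver peaks that overlap its yolk sac promoter peak, and merging left it no separate body region. Without Foxp1 the counts were 20 and 20 in liver and 34 and 23 in yolk sac.

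Foxp1 held 2 and 3 body peaks according to the liver lists but 27 and 18 according to the yolk sac lists. Foxp1 is a repressor with roles in B cells, heart and endothelium. Merged over libraries, peaks formed 30 body regions, of which 14 were called by both yolk sac lists but no liver list, none in both liver libraries alone, 1 in all 4 and 15 in other combinations. All 30 lay in introns of Foxp1, but some also lay in or at the start of other annotated genes. The highest-ranked yolk-sac-only regions were chr6:99439551-99440752, at percentiles of 95.8% and 98.0%, and chr6:99038751-99039952, at 98.1% and 78.1%. The first of these also lay within the gene Gm20696. A run of 4 yolk-sac-only regions lay between chr6:99166801 and chr6:99175952, at percentiles from 19.1% to 74.7% in yolk sac 1 and from 28.0% to 66.2% in yolk sac 2. The region called in all 4 libraries, chr6:99484601-99486102, lay 37370 bp from the 5′ end at 63.5% and 41.6% in liver and 92.8% and 81.8% in yolk sac. It lay at an annotated start of the gene Gm22328, and the yolk-sac-only region chr6:99388501-99389502 lay at one of Gm20705. Such peaks cannot be assigned to Foxp1 alone. At least as many yolk-sac-only body regions were found in 22 of 21951 coding genes (0.1%). That number was chosen after the Foxp1 value was seen, and long genes can hold more regions. Per 100 kb, the liver libraries had 0.335 and 0.502 Foxp1 body peaks and the yolk sac libraries 4.52 and 3.01, more than 63.9% and 82.7% of the 5007 coding genes of 50 kb or longer by the mean of each tissue. The tissue order held with equal list lengths, where Foxp1 had 2 and 3 liver body peaks and 8 and 8 in the yolk sac lists.

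**Figure D3:**
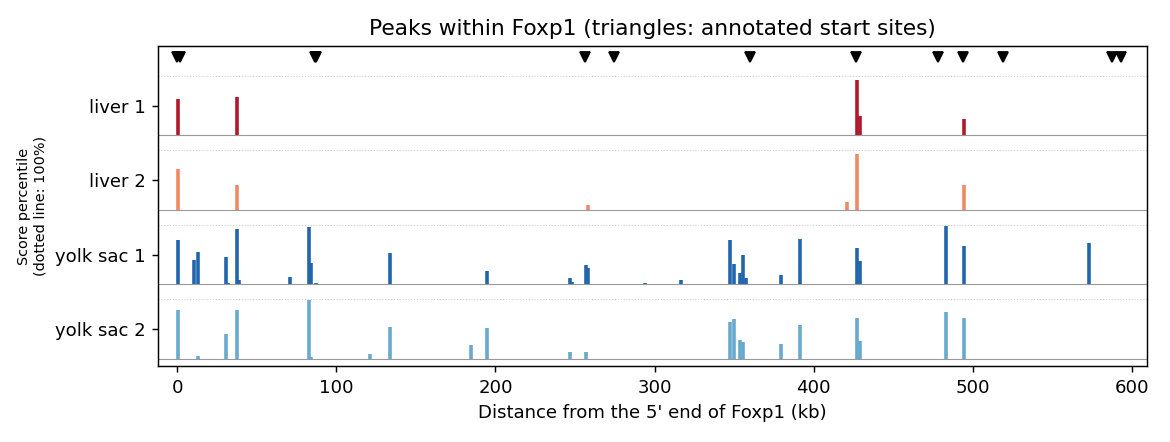
Peaks within Foxp1 in each library, merged over libraries into regions and drawn at the distance of the region's middle from the 5′ end of the gene (horizontal axis, kb), with bar height giving the score percentile within the library's list (dotted line: 100%) and triangles the annotated starts. The liver rows hold few bars away from the starts, and the yolk sac rows hold most of the 30 body regions.

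Foxo3 showed the opposite arrangement over a shorter gene, chr10:42181841-42276755 on the minus strand. Its body held 5 and 6 liver peaks and 5 and 4 yolk sac peaks, so the totals overlapped, but the positions differed. Of the yolk sac peaks, 1 in each library was the split peak within the span of the liver promoter peak. Of 10 body regions, 4 were called in both liver libraries and neither yolk sac library. These were chr10:42264601-42266252 (37.0% and 48.4%), chr10:42260201-42262252 (98.2% and 69.9%), chr10:42246751-42248002 (87.1% and 95.0%) and chr10:42243401-42245352 (88.4% and 77.2%). Their middles lay 11.3, 15.5, 29.4 and 32.4 kb from the 5′ end, 3 within introns and the one at 29.4 kb over an exon. A region at chr10:42269001-42270102 was called in all 4 libraries, at 97.5% and 89.7% in liver and 42.3% and 35.5% in yolk sac. A single yolk-sac-only region, chr10:42204651-42205552, lay 71.7 kb from the 5′ end at 85.1% and 83.0%. At least 4 liver-only body regions were found in 60 of 21951 coding genes (0.273%), a number chosen after the Foxo3 value was seen. With equal list lengths Foxo3 had 5 and 6 liver body peaks and 1 and 1 from yolk sac, and a cut to the upper 50% of scores left 4 and 4 in liver and 1 and 1 in yolk sac. FoxO3 is known for maintaining blood stem cells and for red cell maturation. All 9 erythroid markers were called in both liver lists and 3 of 9 in each yolk sac list, at medians of 86.9% and 85.8% in liver and 78.1% and 80.4% in yolk sac among those called, and the part of erythroid cells in the Foxo3 regions was not tested.

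**Figure D4:**
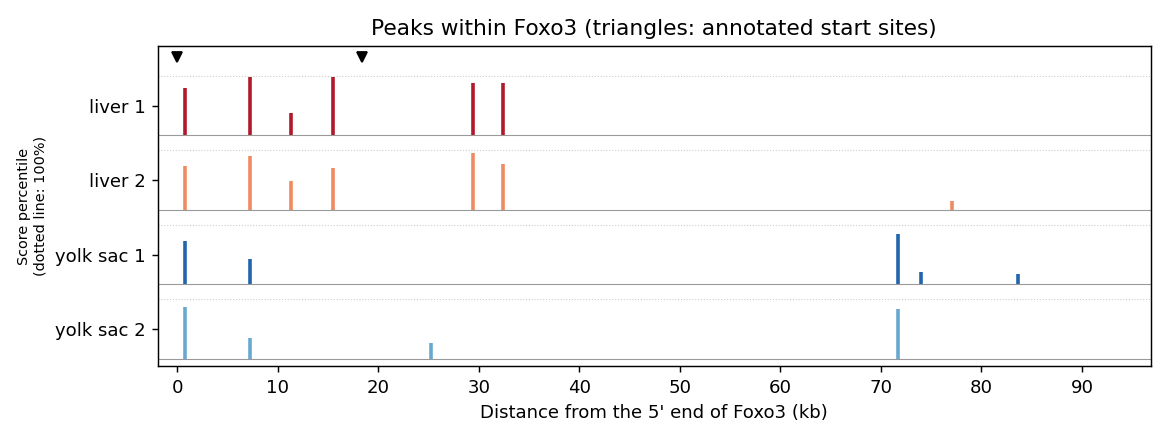
Peaks within Foxo3 in each library, drawn as for Foxp1 (horizontal axis: distance from the 5′ end, kb; bar height: score percentile; triangles: annotated starts). The 4 liver-only regions lie between 11.3 and 32.4 kb, and the yolk-sac-only region lies at 71.7 kb.

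Foxk1, Foxn3 and Foxn1 were the other loci with at least 5 body and flanking peaks in each library of a tissue. Foxk1, at chr5:142401497-142462011, held 4 and 4 liver body peaks and 4 and 5 yolk sac body peaks. Its region chr5:142424251-142426152 was called in all 4 libraries at 47.6% and 40.1% in liver and 87.8% and 93.3% in yolk sac. Foxk1 also had 1 liver-only region, chr5:142417651-142418252 at 62.3% and 21.6%, and 2 yolk-sac-only regions. Foxn3 held 5 and 2 liver body peaks and 9 and 5 yolk sac body peaks, and its tissue counts touched at 5. Its region chr12:99406101-99407802 was called in all 4 libraries at 45.3% and 26.9% in liver and 92.8% and 93.4% in yolk sac. Foxn1, the thymic epithelium regulator, had no promoter peak in any library and no body peak in liver, and held 3 and 2 body peaks in yolk sac. The highest-ranked peaks near Foxn1, at chr11:78400501-78402652, were called in yolk sac only at 96.8% and 97.2%, but this region lay 15.0 kb upstream of Foxn1 within the gene Slc13a2.

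In the 20 kb on either side of Fox genes, peaks that touched no annotated start numbered 12, 10, 38 and 33. Liver averaged 11 ± 1.41 and yolk sac 35.5 ± 3.54 (SD, n = 2 each), a difference of 24.5 peaks (exact permutation p = 0.333). The yolk sac to liver ratio was 3.23, and 2.13 for all coding genes. The difference reversed to -2 peaks with equal list lengths (exact p = 0.667). Of the 23 Fox genes with any such peak, 13 had more in both yolk sac libraries (41.4% of coding genes with any) and 1, Foxn2, had more in both liver libraries (8.7%). Foxs1 had no flanking peak in either liver library. It had 3 and 4 in yolk sac, of which 1 in yolk sac 2 formed no separate flanking region. Its 3 yolk-sac-only regions, chr2:152925201-152925952, chr2:152928001-152929152 and chr2:152929851-152930752, lay 7.63, 4.63 and 2.91 kb downstream of its start, at percentiles from 31.1% to 43.1% in yolk sac 1 and from 19.2% to 40.1% in yolk sac 2. Foxi1, a gene of ion-transporting epithelia, had 2 yolk-sac-only flanking regions and no promoter peak. Foxh1, the Smad partner in Nodal signalling, also had no promoter peak, and its nearest peak lay 1003 to 1053 bp from a start in all 4 libraries, in a region over the start of the neighbouring gene Ppp1r16a (chr15:76670951-76672802).

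The Fox genes lie partly in clusters, and 2 were followed as intervals with 20 kb on each side. From Foxq1 through Foxf2 to Foxc1 (chr13:31536134-31832476), the liver lists had 3 and 4 peaks and the yolk sac lists 7 and 7. Of 7 merged regions, 2 were called in all 4 libraries, 2 in yolk sac only and none in liver only. Foxq1, a gene of gut mucosa and hair, had no promoter peak. The peak nearest its start, chr13:31557201-31560352, began 1067 bp downstream in yolk sac and 1567 and 1467 bp downstream in liver, over the start of the noncoding gene A530084C06Rik, at 65.6% and 93.1% in liver and 88.0% and 76.3% in yolk sac. From Foxc2 to Foxl1 (chr8:121096171-121150644), the liver lists had 1 and 2 peaks and the yolk sac lists 6 and 4. Of 6 regions, 1 was called in all 4 libraries, 2 in yolk sac only and none in liver only. Between Foxc2 and Foxl1, chr8:121125101-121126252 was called at 24.95% in liver 2 and at 95.7% and 60.4% in yolk sac, higher than the promoter peaks of either gene. Both intervals had more peaks in each yolk sac library than in each liver library (exact permutation p = 0.333 for each). The yolk sac lists are longer throughout, and the intervals were not recounted at equal list lengths, so the difference is not read as particular to them.

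Genes that act with Fox factors were mostly called in both tissues. All 18 FoxM1 target genes of the cell cycle and all 9 FoxK partner genes found had a promoter peak in all 4 libraries, against 53.8% of all coding genes. Of 30 insulin and PI3K pathway regulators of FoxO, 29 were called in all 4, and Sfn, a 14-3-3 protein gene, was called in yolk sac only (53.2% and 48.5%). Of 24 FoxO target genes, 20 were called in all 4. Pck1, the gluconeogenic enzyme (31.8% and 35.6%), and Trim63, a muscle ubiquitin ligase (87.6% and 97.2%), were called in yolk sac only, and Fasl and G6pc in no library. Of 11 FoxP partner genes, 8 were called in all 4 and Nfatc2 in yolk sac only (50.2% and 41.5%).

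Hedgehog signalling acts upstream of several mesenchymal Fox genes. Of its 14 genes 9 were called in all 4 libraries, Shh and Dhh in none, and Hhip, a hedgehog-induced antagonist, in yolk sac only (59.3% and 56.7%). Gli2, a hedgehog transcription factor (15.9% in liver 2, 51.1% and 47.0% in yolk sac), shared the pattern of Foxc1 and Foxf2. Of 10 FoxH1 partner genes of the Nodal pathway, 6 were called in all 4. Lefty1, a Nodal antagonist, was the only partner, regulator or target called in liver only, at 39.5% and 34.0%. Over the 115 genes, 98 were called in all 4 libraries, 5 in yolk sac only, 1 in liver only, 7 in none and 4 otherwise. In the same order, the shares over all coding genes were 53.8%, 5.25%, 1.01%, 34.2% and 5.73%. The tissue-only calls of these lists were thus no more frequent than over all coding genes.

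The 16 uncalled Fox genes are mostly known from other tissues. Foxb1, a gene of the hypothalamus, had its nearest peak 227911 and 228061 bp away in liver and 44788 and 47038 bp away in yolk sac. Foxd3, a neural crest gene, had its nearest peak between 58552 and 58802 bp away in all 4 libraries. Foxe3, the lens gene, lay nearest to the Foxd2 promoter peak, 16161 to 16311 bp away. Because the lists hold only peaks with a score of 0.80 or more, lower-scoring signal at these starts was not analysed here.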

How the data were processed

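The authors deposited 1 peak list per library, not pooled over replicates, with a position and a dREG score for each peak. The deposited score has no unit, starts at 0.80 and was not scaled between libraries, so it was used only as a percentile within a list. Per the submitters' processing notes, Bowtie2, bedtools and mm10 were used; the dREG version is not given in the sources used here. Positions are on GRCm38, 1-based: 33.5% to 55.8% of peaks overlapped a GENCODE vM21 start window, and 11.1% to 14.6% after a move by 5 kb.

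Promoter peaks overlapped 500 bp around a start by at least 1 bp, and body and flanking peaks were placed by their middle. Overlapping peaks were merged into regions. Tissues were compared by exact permutation over 6 assignments of 4 libraries. Alternatives covered windows, overlap, score, list length, starts, flank and leaving out libraries. Members and gene lists were chosen with earlier results of these data known. Values were given in full for members called in 1 to 3 libraries, for those with tissue means at least 25 points apart, for the 3 highest and 3 lowest others, and for up to 5 loci with most peaks; other members follow in shorter form. Computations used scipy 1.17.1, pandas 2.3.3 and numpy 2.4.6 under Python 3.11.15. On simulated lists 200 of 200 patterns were returned. Values of some genes are not reported here.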

Additional observations from a re-analysis of the deposited data

How the results depend on the processing

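With the same number of highest-scoring peaks per list, the differences (yolk sac minus liver) became 1 Fox gene with a promoter peak, -6.5 body peaks, -2 flanking peaks and -27.7 percentile points, with 1 Fox gene called in yolk sac only, 6 in other combinations, and 3 yolk-sac-only and 3 liver-only list genes. With the upper 50% of scores kept, the body difference was 6.5 peaks, the flanking difference 7 peaks and the percentile difference -18.2 points, with 3 yolk-sac-only Fox genes (Foxc1, Foxf2 and Foxj1), and 10 yolk-sac-only and 0 liver-only list genes. With the peak middle required in the window, 1 Fox gene was liver-only and 8 fell in other combinations, and 8 list genes were yolk-sac-only and 8 liver-only. With starts of protein-coding transcripts only, 0 list genes were liver-only. Fox calls moved for 7 genes at equal length, 11 at the upper 50% and 7 under the middle rule. Under the middle rule Foxs1 and Foxl1 left the yolk-sac-only group and Foxo3 entered it. Foxj1 became liver-only, and Foxn2, Foxo1 and Foxo4 fell in other combinations. With a window of 250 bp, Foxl1 lost its call. The flanking difference was 12 peaks within 10 kb and 59.5 within 50 kb, and the summed promoter width differed by 774 bp.

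Leaving out 1 library at a time gave 6 to 8 yolk-sac-only, 0 to 1 liver-only and 0 to 3 otherwise called Fox genes, and 5 to 9 yolk-sac-only list genes. Liver replicate 1 and liver replicate 2 each moved 3 calls (Foxc1, Foxf2 and Foxp2). Body differences for Foxp1 were 7.5 peaks in the higher-scoring 50% and 5.5 at equal length, and for Foxo3 -3 and -4.5, alternatives chosen after seeing the data. Replicate numbers were not taken to pair the libraries (correlation of deviations -0.0106 over 11805 genes). That correlation cannot settle whether equal numbers shared embryos, as each tissue has only 2 libraries. With the replicate block the promoter difference stayed 6.5 genes and the smallest possible p was 0.5. No p could reach a threshold with 2 libraries per tissue. Depth is unknown, so an uncalled gene sets no limit on its transcription.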
